A study of Homo sapiens with 6 samples.

Results

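RNA left in the flow-through of an AGO2 pull-down was compared between MDA-MB-231 cells given a miR-99b-5p mimic and cells given a scrambled control. The flow-through is the lysate that the AGO2 antibody beads did not retain. The comparison used the 2 mimic flow-through libraries and the 1 control flow-through library of the 6 in the series, and 12237 nuclear genes of 60708 annotated identifiers, chosen because their counts summed to at least 200 over these 3 libraries. MDA-MB-231 is an established human line of triple-negative breast cancer, a tumor type without hormone receptors or HER2 amplification. Cells were transfected with 25 nM of either oligonucleotide and harvested after 18 hours. The study set out to find RNAs that miR-99b-5p brings to AGO2 by comparing AGO2-bound RNA, and its methods give no use of the flow-through libraries. The labels name the fraction of each control library, whereas the study's own sample list gives both controls as replicates without a fraction.

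MicroRNAs guide Argonaute proteins to complementary messenger RNAs, mostly in the 3′ untranslated region, and pairing of the seed at the 5′ end of the microRNA usually lowers the level and translation of the target. A mimic is a synthetic duplex that loads the mature strand into Argonaute. The miR-99 family, to which miR-99b-5p belongs, is best known for sites in MTOR, IGF1R and chromatin remodelling genes such as SMARCA5.

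The mature sequences of the family are shown because they define the seed that every target site has to match. They are taken from RefSeq (GRCh38.p14), with the seed, bases 2 to 8, in capitals.
miR-99b-5p: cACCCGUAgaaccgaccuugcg
miR-99a-5p: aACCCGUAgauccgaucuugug
miR-100-5p: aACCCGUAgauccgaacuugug
All 3 are 22 bases long and share 1 seed. The mimic copies the first, which is encoded on the plus strand at chr19:51692618-51692639.

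The control library stood apart from both mimic libraries before any gene was compared. It held 7772149 counts on genes, against 46999258 and 48544756 in the mimic libraries. Pairs that aligned at more than 1 locus, which the counting leaves out, were 73.73% in the control, against 9.69% and 19.17% with the mimic. Mitochondrially encoded genes took 43.43% of its gene counts (95% Wilson interval 43.395% to 43.465%), 95.74% of them from the ribosomal RNA genes MT-RNR1 and MT-RNR2. In the mimic libraries the mitochondrial share was 0.1252% and 0.02212%. 7SL RNA, the RNA core of the signal recognition particle, moved the other way, with 4.344% of gene counts in the control and 11.61% and 26.14% with the mimic. Since there was 1 control library, the mimic and these differences of the library cannot be told apart, and all ratios below are given without p-values.

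**Figure D1:**
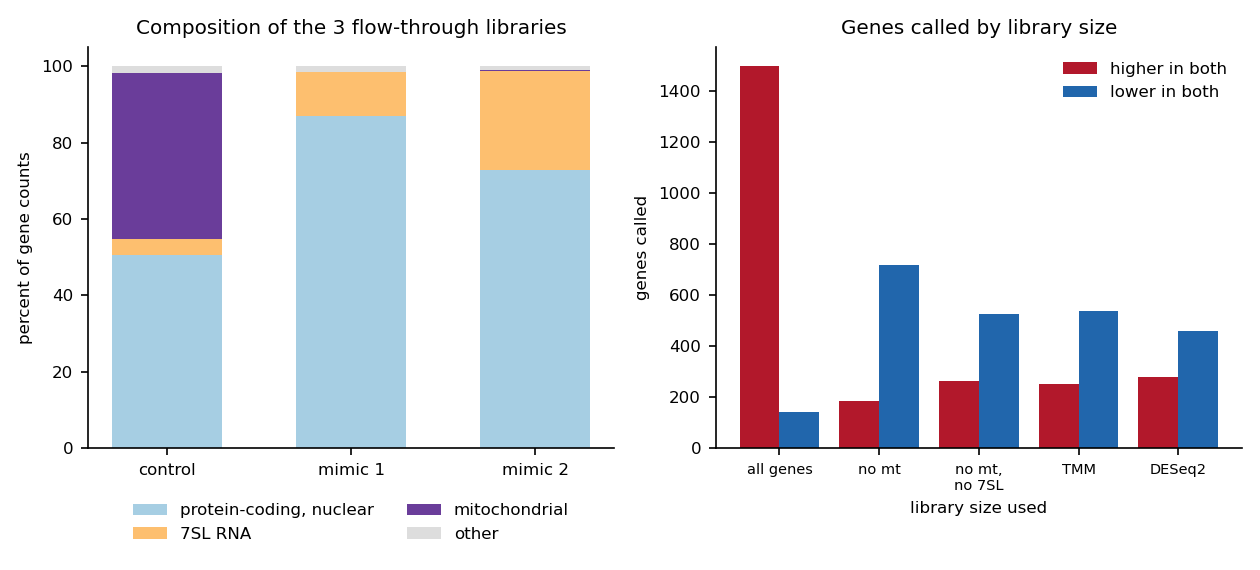
Left, percent of gene counts from nuclear protein-coding, 7SL, mitochondrial and other genes in the 3 flow-through libraries. Right, number of genes at least 2-fold higher (red) or lower (blue) in both mimic libraries when the library size is taken over all genes, without mitochondrial (mt) counts, without mitochondrial and 7SL counts, or by TMM or DESeq2. Mitochondrial RNA fills 43.43% of the control bar, and only the library size over all genes gives more higher than lower calls (1498 against 140).

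Because of this makeup the choice of library size set the sign of many ratios. Scaling by the trimmed mean of M-values (TMM) over the tested genes put the median log2 ratio over all tested genes at 0.02 in mimic library 1 and -0.11 in mimic library 2. With it, 252 genes were at least 2-fold higher in both mimic libraries, 2.06% of those tested, and 539 were at least 2-fold lower in both, 4.4% of those tested. Higher genes were thus 31.9% of the called genes. With the library size over all gene counts, mitochondrial ones included, the median of the mean ratios was 0.52 in place of -0.08, and the split turned to 1498 higher and 140 lower (91.5% higher). Leaving out the mitochondrial counts gave 185 higher and 720 lower (20.4% higher). Leaving out mitochondrial and 7SL counts together gave 262 higher and 524 lower (33.3% higher), of which 221 and 473 were also called with TMM. All values that follow are on the TMM scale, as CPM (counts scaled to the TMM library size of nuclear genes) or as log2 ratios of mimic over control with a prior count of 2, and a gene is called only where both mimic libraries passed 2-fold in the same direction.

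The mimic libraries differed widely from each other. Over all genes the difference between them had an SD of 1.434 on the log2 scale, while the ratios over the control had SDs of 0.991 and 1.343. Alone, library 1 had 824 higher and 1595 lower genes, and library 2 had 2231 and 2970. The ratios of both had the same sign for 6359 genes (52%), and 281 genes passed 2-fold in opposite directions. Across genes, which are not independent replicates and whose ratios share the control library, Pearson's r was 0.274 and Spearman's rho 0.114, given as a description. The median size of the difference between the mimic libraries was 0.995. Ratios moved with the GC content of the transcript, with a rho over 11289 protein-coding genes of -0.323 in library 1 and 0.651 in library 2. After the trend on GC content was removed from each library, the correlation of the ratios was 0.452. The calls among protein-coding genes were then 220 higher and 556 lower, against 176 and 488 before, and only 120 and 354 of them were also called before. Of the called genes, 39 higher and 81 lower ones passed 4-fold in both libraries.

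**Figure D2:**
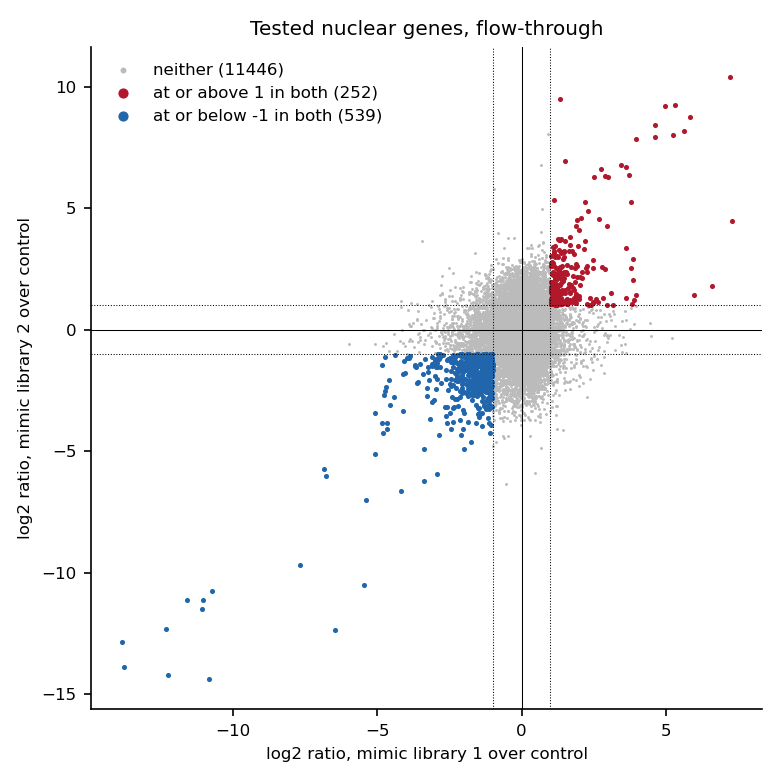
Each point is 1 of 12237 nuclear genes, with its log2 ratio over the control in mimic library 1 (horizontal) and mimic library 2 (vertical), and dotted lines at -1 and 1. Red marks the 252 genes at or above 1 and blue the 539 at or below -1 in both libraries, with a tail of lower genes that reaches past -10 on both axes.

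Secreted inflammatory proteins headed the protein-coding genes that were lower in both mimic libraries. LCN2, which codes for a secreted lipocalin that binds bacterial siderophores, had 637 counts (132 CPM) in the control, 57 (1.08 CPM) in mimic library 1 and 93 (2.43 CPM) in mimic library 2. Its log2 ratios were -6.86 and -5.73, so it was low in both mimic libraries despite their greater depth. CSF2, the gene of the growth factor GM-CSF, had 256 CPM in the control and 7.43 and 7.39 CPM with the mimic, and its ratios were both -5.10. CXCL1, a neutrophil chemoattractant, had 401 CPM in the control, 22.0 in library 1 and 4.02 in library 2. The related CXCL8 (interleukin 8) had 332, 42.9 and 5.43 CPM, and CXCL2 had 71.7, 7.86 and 5.62 CPM. The mimic libraries lay below the control for each of these chemokines, but for CXCL1 and CXCL8 library 2 was much lower than library 1.

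The other genes among the 12 that the naming rule gave as lowest were of mixed function. NGFR, the p75 neurotrophin receptor, had 178 CPM in the control and 6.90 and 10.5 CPM with the mimic. SERPINA1, the protease inhibitor alpha-1 antitrypsin, had 104, 4.36 and 11.9 CPM, and SAA2, an acute phase apolipoprotein, had 54.5, 2.09 and 3.71 CPM. PDZK1IP1 had 77.3, 2.62 and 5.41 CPM, C15orf48 had 46.2, 1.30 and 4.23 CPM, and HLA-DRB1, a chain of the class II antigen-presenting complex, had 46.8, 5.39 and 5.88 CPM. FTH1, the heavy chain of the iron store ferritin, was the most counted of the 12, with 8051 counts in the control and 5165 and 6359 with the mimic, or 1669, 97.4 and 166 CPM. FTH1 has many near-identical copies in the genome, and only uniquely mapped reads were counted, so its level is uncertain. All 12 kept their call in every alternative in which they were measured. The alternatives with 1 mimic library could not lose a call, and every alternative included the same flow-through control library.

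**Figure D3:**
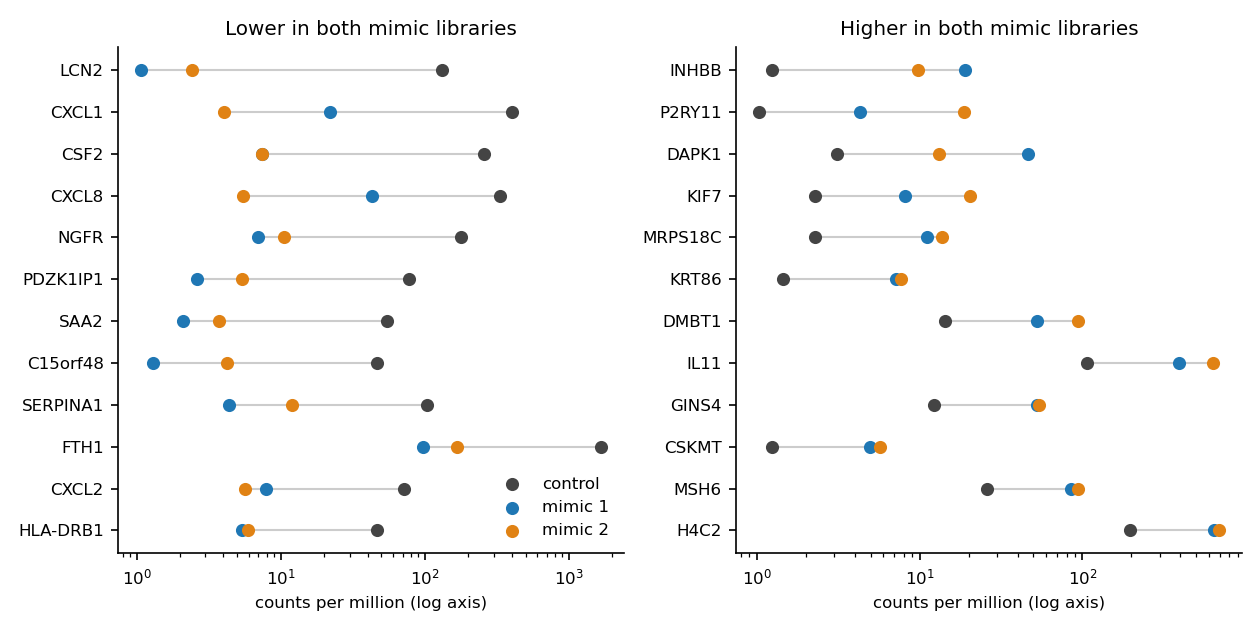
CPM (log axis) in the control (grey), mimic 1 (blue) and mimic 2 (orange) flow-through libraries for the 12 protein-coding genes lowest (left) and highest (right) in both mimic libraries. LCN2 lies at 132 CPM in the control and at 1.08 and 2.43 CPM with the mimic, and IL11, a cytokine, lies on the opposite side at 107, 389 and 631 CPM.

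The list of NF-kB targets and cytokines, 22 of which were measured, had 11 members lower in both mimic libraries and 1 higher, where 4.4% and 2.06% of all genes were. NF-kB is the transcription factor that drives most inflammatory genes. Its list median was -2.51 in library 1 and -1.91 in library 2, against 0.02 and -0.11 over all tested genes. Besides CSF2 and the chemokines above, the interleukin genes IL6 (356 counts in the control, 651 and 196 with the mimic, ratios -2.58 and -3.83), IL1A (ratios -3.40 and -4.91) and IL1B (-2.62 and -3.57) were lower. So were the colony-stimulating factors CSF1 (3079 counts against 3666 and 5824, ratios -3.21 and -2.07) and CSF3 (-2.44 and -4.07), the chemokine CXCL3 (-2.87 and -4.32) and the adhesion molecule ICAM1 (-3.25 and -1.75). The exception was IL11, a cytokine of the interleukin 6 family, with 517 counts in the control and 20645 and 24147 with the mimic, ratios 1.86 and 2.56. The inhibitors that NF-kB itself induces were not called, with ratios of -1.41 and -0.63 for NFKBIA and -1.28 and -0.37 for TNFAIP3. The subunit genes were not called either, at 0.30 and 0.20 for NFKB1 and -0.18 and 1.93 for NFKB2. The count of 11 lower members was the same with the library size over all gene counts, and 12 without mitochondrial counts.

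The promoters of these genes were searched for a kappa B motif, GGGNNNTTCC on either strand, from 250 bases before to 50 after the start, in RefSeq sequence of GRCh38.p14. It was in 6.47% of 27305 promoters, in 7.62% of those of the tested protein-coding genes, in 10.5% of those lower in both libraries and in 8.97% of those higher in both. Of the NF-kB and cytokine list 18 promoters were in the table and 9 held it, 4 of them among the 9 lower genes with a promoter. These 4 are shown with the motif in capitals because they belong to genes that were lower together.
IL6 (chr7:22727117-22727146, plus strand): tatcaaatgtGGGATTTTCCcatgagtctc
CXCL1 (chr4:73869304-73869333, plus strand): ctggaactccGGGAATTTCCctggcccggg
CXCL2 (chr4:74099254-74099283, minus strand): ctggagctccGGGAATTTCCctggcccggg
CXCL3 (chr4:74038749-74038778, minus strand): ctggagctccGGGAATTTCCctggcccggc
In CXCL1, CXCL2 and CXCL3 the motif also matches 1 base further on the other strand. A match is a description of the letters and was not tied to binding here.

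Genes of the secretory route were lower as groups. Of 41 measured genes for entry into and folding in the endoplasmic reticulum (ER), 17 were lower and none was higher in both libraries, with medians of -1.24 and -1.59. The chaperone CALR had 6299 counts in the control and 17008 and 14948 with the mimic, ratios -2.02 and -1.74. PDIA3, a disulfide isomerase that works with it, had ratios of -2.32 and -2.83, PDIA4 of -2.98 and -1.53, and the lectin chaperone CANX of -1.53 and -2.14. CALU, a calcium-binding ER protein, was the lowest of the list at -2.34 and -3.19. At the other end SEC61G, a small subunit of the translocon, had ratios of 1.48 and -0.72, on opposite sides. P4HB, a disulfide isomerase, was low in library 1 alone (-1.53 and 0.03). The list of ATF4 and unfolded protein response genes overlaps this group through its chaperones and had 10 of 26 lower. The transcription factor genes ATF4 (-0.36 and -0.94), XBP1 (-0.85 and -0.58) and DDIT3 (0.05 and -0.80) were not called, and the stress gene DDIT4 had ratios of 0.76 and 1.78.

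Receptors that return or sort cargo between the ER and the Golgi followed the same direction, with 6 of 18 lower and none higher. KDELR1 and KDELR2, receptors that retrieve ER proteins, had ratios of -1.44 and -2.18 and of -1.12 and -1.88, and KDELR3 of -1.77 and -1.62. TMED5 had ratios of -1.09 and -4.24, while ERGIC1 had 0.20 and -1.10. Lysosomal proteins held the largest share of lower genes among these 3 lists, 21 of 31 with none higher and medians of -1.60 and -1.54. CTSD, the aspartic protease cathepsin D, had 2800 counts in the control and 4071 and 7726 with the mimic, ratios -2.92 and -1.52. The cysteine protease CTSB (-1.83 and -1.74), the membrane protein LAMP1 (1123 counts in the control against 4079 and 3158), the cholesterol carrier NPC2 (-2.03 and -3.30) and the peptidase TPP1 (-2.20 and -3.15) were lower too. CTSZ (-1.38 and -0.79) and PSAP, the precursor of the saposins (-1.83 and -0.47), missed the threshold in library 2. These 3 lists were chosen after the values had been seen. With the library size over all gene counts, the counts lower in both fell to 7 of 41, 0 of 18 and 8 of 31, while their medians stayed below 0 at -0.89, -0.78 and -1.04, against 0.52 over all genes.

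Antigen presentation genes were lower in both classes (these lists, and those of acute phase genes, solute carriers, TMEM genes and small RNAs, were also chosen after the values had been seen). Of 9 class I genes 7 were lower, among them B2M, the shared light chain, with 3940 counts in the control and 10893 and 2902 with the mimic, ratios -1.99 and -3.43. The heavy chain genes HLA-B (-3.10 and -1.12) and HLA-C (-2.60 and -1.67) were lower too, and more so in library 1, but reads of such similar genes may be split, so their levels are uncertain. TAPBP, which loads peptides, had ratios of -2.02 and -1.06, and the peptide transporter TAP2 had -0.66 and -0.29. The call of TAPBP was lost in 5 of the alternatives and that of HLA-B in 3. Of 7 class II genes 6 were lower. CD74, the invariant chain, had 3331 counts in the control and 6793 and 3884 with the mimic, ratios -2.43 and -2.77. HLA-DPA1 had ratios of -2.02 and -4.10, and HLA-DRA of -1.57 and -3.82. CIITA, the transcriptional activator of class II genes, was not called, at 0.06 and 0.21. With DESeq2's size factors 4 of the 9 class I genes were lower, and with the library size over all gene counts 2.

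Acute phase genes, which encode plasma proteins of inflammation, had 5 of 6 lower, with medians of -4.49 and -2.94. SAA1 had ratios of -4.42 and -2.76, and C3, the central complement protein, of -3.34 and -1.22. PTX3, a pentraxin, had -2.43 and -0.12 and was not called. Together the cytokine, acute phase, antigen presentation, ER, cargo receptor and lysosomal lists held 134 measured genes, 73 of them (54.5%) lower in both libraries and 1 higher. Of the other 11155 protein-coding genes 415 (3.72%) were lower and 175 (1.57%) higher. The cytokine list was chosen with earlier results of these data known, and the other pooled lists after the values had been seen. The gap between these shares thus follows in part from that choice and is a description only. The 73 were 15% of all lower protein-coding genes. After removal of the GC trend 79 of the 134 were lower, and with the library size over all gene counts 37.

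Membrane transporters and other membrane proteins shifted less. Of 190 solute carriers 17 were lower and none higher, with medians of -0.60 and -0.15, and SLC39A10, a zinc transporter, was the lowest (-1.72 and -2.68). Of 144 TMEM genes 13 were lower and 1 was higher. Both sets of counts are to be read against the 4.4% lower and 2.06% higher of all tested genes. With the library size over all gene counts both list medians lay above 0, at 0.18 and 0.10. Collagens, laminins and integrins differed between the mimic libraries, with a median of -1.13 in library 1 and 0.19 in library 2 over 45 genes.

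The 12 protein-coding genes that the naming rule gave as highest included several with few counts in the control. INHBB, a subunit of activin and inhibin, had 6 counts in the control and 1005 and 374 with the mimic, or 1.24, 19.0 and 9.77 CPM. DAPK1, a death-associated kinase, had 3.11, 46.0 and 13.2 CPM, and P2RY11, a receptor for ATP, had 1.04, 4.32 and 18.9 CPM. KIF7, a kinesin of the primary cilium, had 2.28, 8.15 and 20.4 CPM, and KRT86, a hair keratin, had 1.45, 7.17 and 7.68 CPM. In these 5 genes, and in MRPS18C and CSKMT below, the control value rests on at most 15 counts. GINS4, a subunit of the replicative helicase, had 59 counts in the control and 2788 and 2073 with the mimic, or 12.2, 52.6 and 54.2 CPM, with ratios of 2.10 and 2.14. MSH6, which recognises mismatched bases in DNA, had 26.1, 85.5 and 94.3 CPM, and DMBT1, a secreted scavenger receptor, had 14.3, 52.5 and 94.2 CPM. The histone gene H4C2 had 197, 641 and 691 CPM, and its near-identical copies make that level uncertain. MRPS18C of the mitochondrial ribosome (2.28, 11.1 and 13.7 CPM) lost the call on either strand alone, P2RY11 lost it on one strand, and the methyltransferase gene CSKMT (1.24, 4.92 and 5.75 CPM) lost it when all libraries were thinned to the shallowest.

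Among the protein-coding lists, genes for making ribosomes had the highest median in library 2. Of 42 measured, 9 were higher in both libraries and none was lower, with medians of 0.69 and 1.13. FTSJ3, an RNA methyltransferase of the nucleolus, had 93 counts in the control and 3010 and 3696 with the mimic, ratios 1.56 and 2.32, but lost its call on either strand alone. POLR1A, the largest subunit of RNA polymerase I, had ratios of 1.23 and 2.35, PDCD11 of 1.30 and 2.35, and PPAN of 1.56 and 2.68. PPAN and P2RY11 are neighbours whose transcripts can run together, so their reads may be shared. NPM1, the abundant nucleolar chaperone, had 0.56 and -1.53, and BOP1 had 0.56 and 3.08, so neither was called. This list was chosen after the values had been seen.

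Cell division, chaperone and sugar metabolism genes had list medians above 0 in both libraries, with few calls. The cell cycle list G1/S, which holds DNA replication genes and cyclins, had medians of 0.14 and 0.94. The list G2/M, of mitosis, had 0.70 and 0.10. The medians were 0.72 and 0.44 for heat shock and 0.26 and 0.96 for glycolysis, against 0.02 and -0.11 over all tested genes. The counts of 1 or 2 calls are to be read against the 2.06% of all tested genes that were higher, and in lists of this size 1 call is near that share. Of 28 G1/S genes 2 were higher, and MCM2, part of the replicative helicase, had 89 counts in the control and 3124 and 7973 with the mimic, ratios 1.67 and 3.49. Its partner MCM3 had 0.24 and 1.89, and the cyclin gene CCND1 had 0.48 and 0.97. Of 28 mitotic genes 1 was higher, the kinesin gene KIF2C, with 196 counts in the control and 6101 and 4497 with the mimic, and TPX2 had 0.72 and 1.19. Of 16 heat shock genes 2 were higher, HSP90AB1 (1.19 and 1.20) and HSPA1B (1.33 and 2.58), and HSPA8 had 0.80 and 1.14. Both calls were lost with both control libraries, flow-through and AGO2-bound, as the reference, and that of HSP90AB1 also without mitochondrial counts. Of 16 glycolysis genes 1 was higher, HK2, the first enzyme of the route, at 1.54 and 2.37, while ENO1 had 1.13 and 0.85 and PKM was not called either. None of these 4 lists had a lower member. Their medians stayed above 0 in all scalings that were tried, and at 0.22 to 0.37 without mitochondrial counts.

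**Figure D4:**
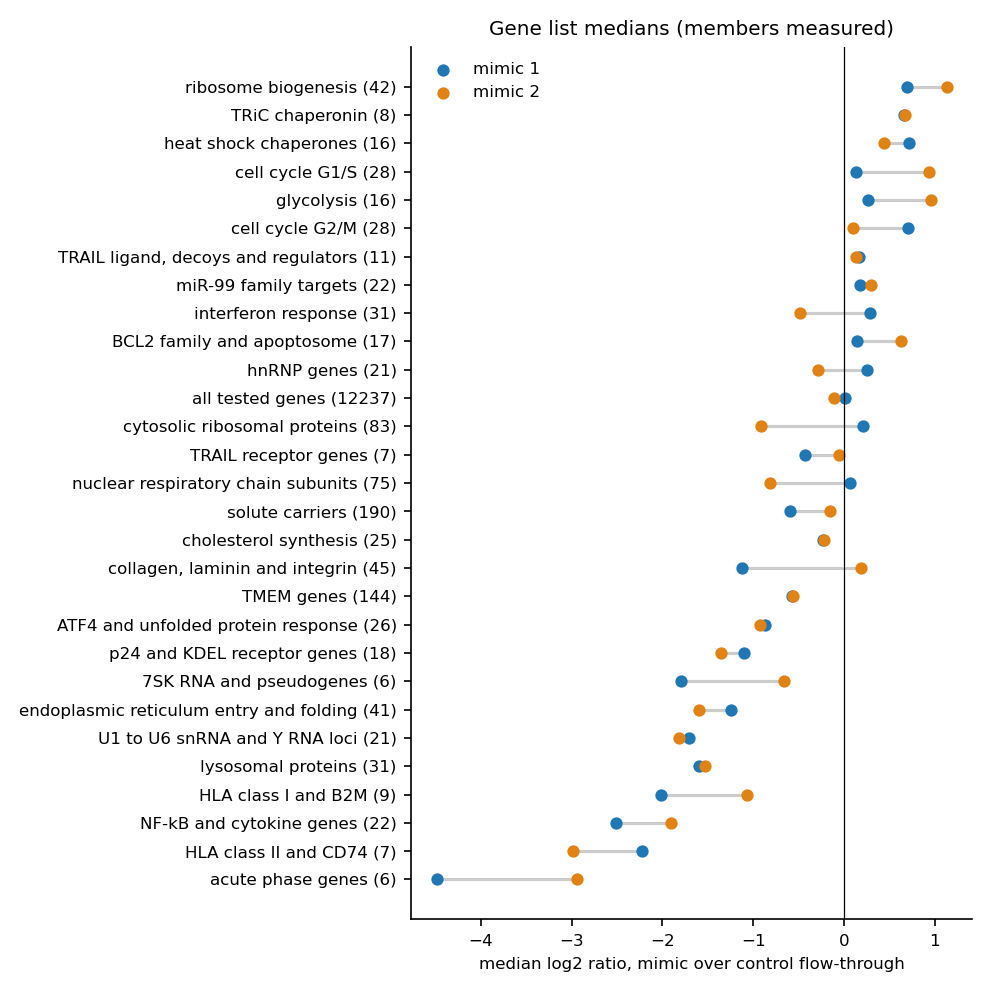
Median log2 ratio of mimic over control flow-through for a selection of the gene lists in mimic library 1 (blue) and library 2 (orange), with the number of members measured. Acute phase, class II, cytokine, class I, lysosomal, snRNA and Y RNA, ER, and p24 and KDEL receptor lists lie below -1 in both libraries, and ribosome biogenesis lies above 0 in both, at 0.69 and 1.13.

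The TRAIL death receptors start programmed cell death from the cell surface. The study followed genes of this pathway, and none of its 7 measured genes was called in either direction. TNFRSF10B, the receptor DR5, had 574 counts in the control and 3422 and 4158 with the mimic, or 119, 64.5 and 109 CPM, so both mimic libraries lay below the control, with ratios of -0.88 and -0.13. The ratio in library 2 was near the median of -0.11 over all tested genes there. With the library size over all gene counts the mean ratio of TNFRSF10B turned from -0.51 to 0.10, where the median over all genes was 0.52. TNFRSF10A, the receptor DR4, had 13.9, 8.37 and 11.5 CPM and ratios of -0.73 and -0.26. FADD, the adaptor of these receptors, had 36.1, 26.8 and 182 CPM, with the mimic libraries on opposite sides of the control (-0.43 and 2.34). The initiator caspase CASP8 had ratios of 0.33 and 0.49, and CASP10 had -0.20 and -0.32. BID, which carries the signal to mitochondria, had -0.47 and -0.05, and BAK1, which opens their outer membrane, had 53.7, 68.6 and 135 CPM and ratios of 0.35 and 1.33. The list median was -0.43 in library 1 and -0.05 in library 2. That of the mean ratios turned from -0.26 to 0.35 with the library size over all gene counts. The mimic libraries differed from each other by 0.75 for TNFRSF10B, by 0.98 for BAK1 and by 2.77 for FADD on the log2 scale.

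Other genes of the pathway included 2 that were lower, of 11 measured. TNFSF10, the gene of TRAIL itself, had 402 counts in the control and 1014 and 243 with the mimic, or 83.3, 19.1 and 6.35 CPM, with ratios of -2.12 and -3.70. The decoy receptor gene TNFRSF11B had ratios of -1.56 and -2.72. The adaptor gene TRAF2 had 0.25 and 2.02. In the BCL2 family and apoptosome list 1 of 17 was higher, the survival gene BCL2, with 55 counts in the control and 1226 and 1052 with the mimic and ratios of 1.02 and 1.27. This 1 call is near the 2.06% of all tested genes, and it was lost in 5 of the alternatives. BCL2L1, which codes for BCL-XL, had 515, 322 and 525 CPM and ratios of -0.68 and 0.03. MCL1 had 0.82 and 0.82, and the pro-death gene BAD had -1.48 and 0.72. The stress kinase genes MAPK8 (0.83 and -1.13) and MAPK9 (-0.56 and -1.46) were not called.

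Genes with a miR-99b-5p seed match were not lower than the rest. Canonical 3′ UTRs (GENCODE 44, GRCh38) were searched for ACGGGT, the 6-base match to seed bases 2 to 7, extended to TACGGGT (7mer-m8), ACGGGTA (7mer-A1) or TACGGGTA (8mer). Of 19480 UTRs 5.74% held ACGGGT and 0.241% held the 8mer. Among tested genes, the median of the mean ratios was -0.005 for 34 genes with an 8mer, -0.06 for 116 with a 7mer-m8, -0.002 for 100 with a 7mer-A1, 0.01 for 502 with the 6mer alone and -0.10 for 10530 with none. The 250 genes with a 7mer or 8mer had a median 0.08 above the genes without any, and 10 of them (4%) were lower in both libraries against 4.42% of the genes without. The difference was -0.02 in library 1 alone and 0.02 in library 2 alone. With the mean of the flow-through and AGO2-bound control libraries as the reference, which mixes fractions, it was -0.12. Genes with an 8mer or 7mer had longer UTRs, with a median of 3524 bases against 1319.5. The pull-down removes AGO2-bound RNA from the flow-through, so fewer copies in the cell and more copies retained on the beads cannot be told apart in these libraries.

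The sites of 5 genes of the miR-99 family list are shown, 30 bases each in transcript direction with the seed match in capitals, because they carry the seed match without a shared direction of the ratio.
MTOR (chr1:11107172-11107201, minus strand): aactttagaaaTACGGGTtttgacttaact
IGF1R (chr15:98963033-98963062, plus strand): gtccagtagatTACGGGTAgtcagttgacg
SMARCA5 (chr4:143553224-143553253, plus strand): gttctttaattTACGGGTcttcataagatg
FZD8 (chr10:35638783-35638812, minus strand): ccccacgtaaaTACGGGTttcttacattag
BMPR2 (chr2:202567337-202567366, plus strand): tctttcttgttaACGGGTAtcttttgttgg
MTOR, a growth kinase, had 275 counts in the control and 5192 and 3794 with the mimic, or 57.0, 97.9 and 99.1 CPM, so both mimic libraries were above the control (ratios 0.78 and 0.80). IGF1R, the receptor of insulin-like growth factor 1 and the only 8mer of the 5, had 39.8, 52.0 and 56.0 CPM and ratios of 0.38 and 0.49. SMARCA5, a nucleosome remodeller, had 1.30 and -1.34. FZD8, a Wnt receptor, was higher in both (10 counts against 443 and 209, ratios 1.98 and 1.37). BMPR2, a receptor of bone morphogenetic proteins with a 7mer-A1, was lower in both (1252 counts against 6184 and 4348, ratios -1.15 and -1.19). FZD8 lost its call in 5 alternatives and BMPR2 in 2.

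Over the whole family list 1 of 22 measured genes was higher and 1 lower, and the medians were 0.18 and 0.29. In a list of this size 1 call each way is near the shares over all tested genes, 2.06% higher and 4.4% lower. RPTOR, the MTOR partner, had ratios of 0.17 and 1.57. BAZ2A, which holds both an 8mer and a 7mer-m8, had -0.01 and 0.56. KBTBD8, with an 8mer, had 2.42 and -1.16. AGO2, the protein of the pull-down and itself a holder of a 7mer-m8, had 197, 341 and 317 CPM and ratios of 0.79 and 0.69. Of 13 genes of the microRNA machinery none was called, and TNRC6B, which links Argonaute to RNA decay, had 1.41 and 0.86. None of the 7 TRAIL receptor genes held a 7mer or 8mer, BID held 1 6mer, and BCL2L1 held none. The search covered only perfect seed matches in canonical 3′ UTRs, so other kinds of site were not tested. With luciferase reporters, the study reported TNFRSF10B (DR5) as a target that the microRNA binds directly in this region. By quantitative PCR it also found more TNFRSF10B RNA in the AGO2 pull-down with the mimic than with the control. In the AGO2-bound libraries none of the 7 TRAIL receptor genes was higher in both mimic libraries and 4 were lower. Of all genes tested there, 12.1% were lower. The list medians over the AGO2-bound control were -1.002 in mimic library 1 and -1.156 in mimic library 2. With 1 AGO2-bound control library, the difference from the PCR result was not tested.

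**Figure D5:**
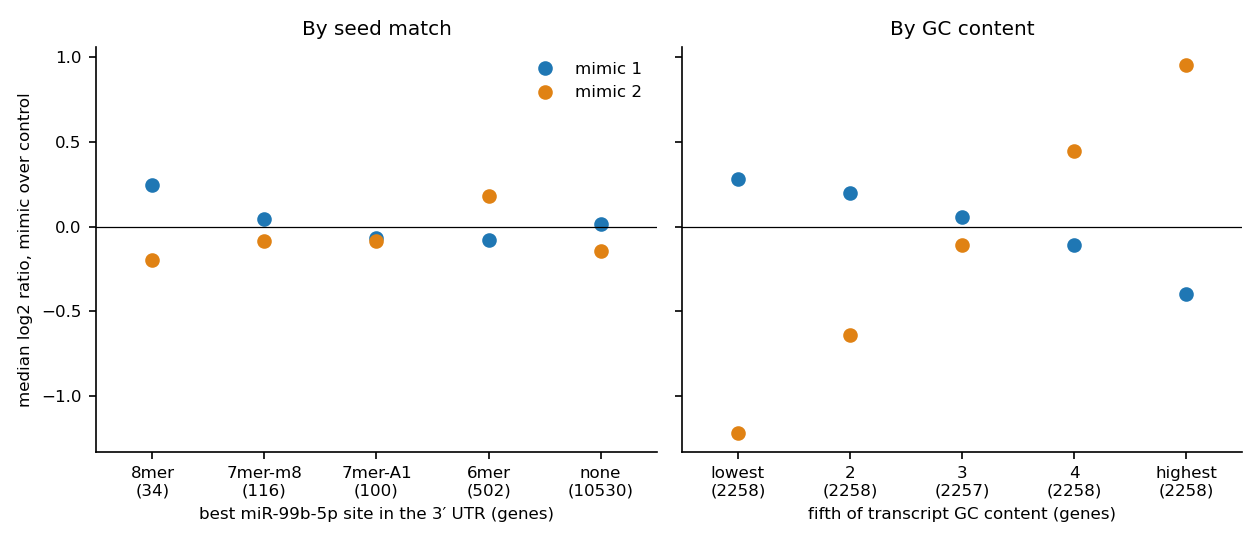
Median log2 ratio in mimic library 1 (blue) and library 2 (orange) for genes by the best miR-99b-5p site in the 3′ UTR (left) and for protein-coding genes in 5 equal classes of transcript GC content (right), with gene numbers below. The site classes stay within 0.25 of 0, whereas the GC classes run from 0.28 to -0.40 in library 1 and from -1.22 to 0.95 in library 2.

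Non-coding RNAs held the extremes in both directions. Of 28 measured 7SL genes and copies 24 were higher in both libraries and none lower. Only 4 of the 28 had more than 20 counts in the control. The others reached the summed-count minimum only through the deeper mimic libraries. Their higher calls thus follow in part from that selection, and the count of 24 is a description only. Of the 4, RN7SL4P (ratios 2.68 and 4.54) and RN7SL5P (2.19 and 3.67) were called higher, and RN7SL1 and RN7SL3 were not. RN7SL1, the main gene, had 334328 counts in the control and 5379433 and 12493026 with the mimic, ratios 0.55 and 2.24, and was not called. RN7SL3 had 0.62 and 2.29. The copy RN7SL767P had 0 counts in the control and 491 and 3207 with the mimic, at least 74.8-fold higher in the mean against a floor of 3 counts in the control library. Of the 28, 14 were at 0 in the control, and with these at that floor the list median was 3.19 in place of 4.62. The copies share most of their sequence with RN7SL1, so reads may be split among them, and the list follows the 7SL share of the libraries given above. The 7SK list had 3 of 6 lower, among them RN7SKP80 (1270 counts against 3180 and 1467, ratios -2.13 and -2.78).

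Among small RNAs of the spliceosome and the Ro particle 9 of 21 were lower and 2 higher. RNY4, a Y RNA, had 193 counts in the control and 16 and 21 with the mimic, ratios -6.78 and -6.03, and RNY1 had -3.28 and -2.74. RNU5A-1, of the U5 particle, had -4.79 and -4.27. The U4 genes RNU4-1 (-2.53 and -1.22) and RNU4-2 (-2.88 and -1.02) were lower, and the U6 copy RNU6-5P was higher, with 1 count in the control against 2220 and 224. RNU4-2 lost its call in 6 of the alternatives and RNU4-1 in 2. RN7SKP80, RNY1 and the U4 genes turned to positive mean ratios when both control libraries served as the reference (0.25, 0.64, 1.36 and 1.27). That reference includes the AGO2-bound control, so it mixes fractions. RN7SKP80 had 55 counts in the AGO2-bound control and 1270 in the flow-through control.

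Among the lowest genes were 4 unnamed lncRNA genes of 923 bases on the minus strand of chromosome 21. ENSG00000281181 (chr21:8437629-8438551) had 8592 counts in the control and 3 and 7 with the mimic. ENSG00000281383 (chr21:8254592-8255514) had 10415, 20 and 2 counts, and ENSG00000280614 (chr21:8393419-8394341) had 6364, 35 and 0. ENSG00000280800 (chr21:8210384-8211306) had 1543 counts in the control and 0 in both mimic libraries, at least 4080-fold lower against a floor of 3 counts per library. Each lies 1266 to 1272 bases before an annotated 5.8S ribosomal RNA gene on the other strand. MTATP6P1, a nuclear copy of a mitochondrial gene, had 2332 counts in the control and 121 and 20 with the mimic. They were high in the library with the most mitochondrial ribosomal RNA, and the part of that in these values was not tested. The long non-coding RNAs NORAD (-0.16 and -0.54) and MALAT1 (-0.54 and -0.96) were not called.

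Markers of the line were present in all 3 libraries. All 15 MDA-MB-231 markers were measured, with summed levels of 8180 CPM in the control and 6160 and 7710 CPM with the mimic. Single markers moved apart. CD44 (-1.56 and -2.24), MET (-1.69 and -2.41) and CAV1 (-1.38 and -1.54) were lower in both, 5 of the 15 in all, MSN was higher (1.56 and 1.24), and VIM had 1.34 and 0.39. Of 10 luminal epithelial markers 5 reached a summed count of 200, with list medians of -1.46 and -1.02. The summed level of all 10 was 257 CPM in the control and 250 and 569 CPM with the mimic. EPCAM, an epithelial adhesion molecule (-1.77 and -1.72), and the receptor gene ERBB3 (-1.68 and -1.02) were lower in both, the transcription factor gene GATA3 had -1.46 and -0.42, and the keratin gene KRT19, the most counted, had 0.22 and 1.45. ERBB3 had 38 counts in the control and lost its call in 5 of the alternatives, and EPCAM in 2. Of the markers not measured, the receptor genes ESR1 and PGR had at most 25 counts in a library. Summed blood cell markers were 16.6 CPM in the control and 2.41 and 7.18 CPM with the mimic, and only CD14 (60, 78 and 182 counts) was measured. Of common reference genes, ACTB had ratios of -0.74 and 0.14 and GAPDH of 0.89 and 0.24. Mimic library 2 was thus 0.88 above library 1 for ACTB and -0.66 from it for GAPDH on the log2 scale. FLNA, among the most counted messenger RNAs, had 0.99 and 2.61, and EEF1A1 had 0.56 and 0.10.

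The AGO2-bound RNA of the same conditions gave a readout from other libraries, with 1 control and 2 mimic libraries of its own. The titles of the mimic libraries carry the same replicate names in both fractions. Since the flow-through is what the same kind of pull-down left behind, agreement between the fractions is not an independent check. Its control library was also apart from its mimic libraries, with 76.66% of pairs aligned at more than 1 locus against 2.71% and 2.38%. Of the 11452 genes tested there 12.2% were higher and 12.1% lower in both mimic libraries. Of the 469 genes lower in the flow-through that had an AGO2 value, 288 (61.4%) were lower there and 3 higher. Those 288 genes were 21.1% of the genes lower in AGO2-bound RNA that had a flow-through value. Of the 181 genes higher in the flow-through with an AGO2 value, 60 (33.1%) were higher there and none lower, which was 4.41% of the genes higher there. LCN2 had a mean AGO2 ratio of -6.24, CSF2 of -5.19, NGFR of -5.93 and FTH1 of -4.74, and IL11 of 1.89. The cytokine list had 15 of 20 members lower in AGO2-bound RNA and the lysosomal list 26 of 30. The hnRNP genes, nuclear RNA-binding proteins, went another way, with a flow-through median of 0.26 in library 1 and -0.29 in library 2, 1 of 21 higher (HNRNPM, 1.32 and 1.85) and an AGO2 median of 2.31 with 16 of 21 higher.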

How the data were processed

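Paired-end RNA-seq of MDA-MB-231 flow-through RNA gave 3 libraries, 1 control and 2 mimic. Per the submitters' processing notes and the study's methods, the authors checked reads with FastQC 0.11.9, trimmed them with cutadapt 3.5 and aligned them to GRCh38 with STAR 2.7.11b in its pass-twice mode, with Ensembl genes (release not given in the sources used here). The deposited values are raw counts of uniquely mapped pairs per gene, not normalized and without molecular identifiers, so intervals cover counting error only. The unstranded column was used. Rows that name no gene held 92.26% of the control's pairs and 35.13% and 47.16% of the mimic libraries', and were left out of library sizes.

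Genes were named through GENCODE 44, which held 60463 of the 60708 identifiers. Nuclear genes whose counts over the 3 libraries summed to 200 or more were scaled by TMM (edgeR 4.0.16 in R 4.3.3), and log2 ratios used a prior count of 2. A gene was called where both mimic libraries were at least 2-fold from the control in 1 direction. With 1 control library there was no test and no p-value, and the 2 mimic libraries are numbered replicates, the study's methods describing independent biological replicates for the AGO2 pull-down. DESeq2 1.42.0 gave size factors for an alternative. Tables and figures were made with Python 3.11.15, pandas 2.3.3 and matplotlib 3.10.9.

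The text names the 12 protein-coding genes highest and lowest by the ratio nearer to 0 of the mimic libraries, among called genes with at least 200 counts on the higher side, the extreme and most counted members of each list, the most counted genes, the extreme non-coding genes and the genes the study followed. Other named genes were chosen after their values were seen. The comparison and the gene lists were chosen with earlier results of these data known. Alternatives covered library size, count minimum, strand column, prior count, depth, GC content, the control used and each mimic library alone. The values of 1 gene are not reported here.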

Additional observations from a re-analysis of the deposited data

Results flagged for a closer look

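Some genes and lists had flow-through ratios on 1 side of 0 in both mimic libraries and AGO2-bound ratios on the other side in both. None of these differences was tested, and the 2 fractions have separate control libraries. Above the control in the flow-through and below it in AGO2-bound RNA were TRAF2, with a mean AGO2 log2 ratio of -0.34, RPTOR with -0.37, BAK1 with -0.37, KRT19 with -0.51, GAPDH with -0.43 and CIITA with -1.21. The reverse held for the RNA-binding protein genes HNRNPA1 (flow-through ratios -0.10 and -0.29, mean AGO2 ratio 1.94) and HNRNPD (-0.51 and -1.57, 3.1), for the nuclear lncRNA MALAT1 (2.12) and for RNU5A-1 (0.5). Of the lists, the TRAIL ligand, decoy and regulator genes had a median AGO2 ratio of -0.291. That of the miR-99 family targets was -0.236, and both lists had flow-through medians above 0. The snRNA and Y RNA loci had 0.379 with flow-through medians below 0. Only 9 of their 21 loci had an AGO2 value, so these medians rest on different sets of loci.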

How the results depend on the processing

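No paired analysis was possible because each fraction has 1 control library and the comparison has no test. The number of genes higher in both mimic libraries, 252, became 1498 with the library size over all gene counts, 610 with a summed count of at least 50, 131 with one of at least 1000, 137 with at least 20 counts in every library and 410 with both control libraries as reference. With 1 mimic library left out it ranged from 824 to 2231. The number of lower genes, 539, became 140, 894 and 339 with the first 3 of these, and 1595 to 2970 with 1 mimic library. The median log2 ratio of all tested genes, -0.082, was 0.52 with the library size over all gene counts, -0.298 without mitochondrial counts and -0.108 to 0.017 with 1 mimic library. The seed match difference, 0.081, was 0.036 with a summed count of at least 1000, 0.03 on 1 strand, -0.121 with both control libraries and -0.023 to 0.024 with 1 mimic library. With both control libraries the 7SK list median turned to 1.654, the snRNA and Y RNA list median to 0.437, RN7SKP80 to 0.246, RNU4-2 to 1.273, RNU4-1 to 1.356 and RNY1 to 0.644. The reference of both controls mixes the flow-through and AGO2-bound fractions, and the cause of these shifts was not tested. The control's depth limits all ratios: 1259 tested genes had under 20 counts in it and 18 had none.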
